A study of Mus musculus with 6 samples.

Results

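CREM and the factors that act around it form the transcription machinery peculiar to the haploid phase of sperm development, and 9 of the genes that encode this machinery were followed here in mouse round spermatids with and without Eif5a. The 9 are Crem, Fhl5, Tbpl1, Gtf2a1l, Taf7l, Rfx2, Sox30, Sox5 and Tcfl5. They were picked by name, as the rows of the count table that carry these symbols, with earlier results of these data known. All 9 were found among 22770 gene rows and stayed among the 19776 genes that were tested. Polyadenylated RNA was amplified by Smart-seq2 from round spermatids, the haploid cells that follow meiosis, sorted by flow cytometry at postnatal day 28, mostly step 8 cells. The comparison set 3 libraries of the genotype labelled Eif5a SKO against 3 labelled wild type. What SKO abbreviates, which promoter drives the deletion and whether the 3 libraries of a group come from separate mice is left unsaid by the labels, so p-values measure the spread between libraries, which may be technical. Eif5a, a translation factor that helps ribosomes past difficult stretches of a message, stood at 6.88, 6.27 and 5.35 CPM in the SKO libraries and at 700.9, 616.4 and 661.7 CPM in wild type, so each library matched its label. CPM, the unit of level throughout, is a gene's count scaled to a fixed effective library size.

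In somatic cells CREM and its relatives answer cyclic AMP when a kinase phosphorylates them and the coactivator CBP binds. In spermatids CREM is instead turned on by FHL5, also known as ACT, a LIM-domain protein that binds it without phosphorylation, and together they switch on genes for sperm proteins such as protamines. The same cells replace parts of the general transcription machinery with germ cell versions: TBPL1 in place of the TATA-binding protein, GTF2A1L in place of the large TFIIA subunit, and TAF7L in place of the TFIID subunit TAF7. RFX2, SOX30, SOX5 and TCFL5 are DNA-binding factors of late spermatocytes and round spermatids, of which RFX2 and SOX30 are needed for spermatids to mature.

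Of the 9 genes, 4 rose in SKO spermatids and 0 fell: Taf7l, Fhl5, Tbpl1 and Crem. A gene was called where edgeR's quasi-likelihood test gave an adjusted p under 0.05 (Benjamini-Hochberg, over all genes tested). The test called 42.0% of all genes tested in either direction, 21.2% higher and 20.9% lower, so the share of the 9 that was called, 4 of 9, was near the background. The median log2 fold change of the 9 was 0.195, against 0.01 over all genes tested. The 3 SKO values lay wholly above the 3 wild-type values for 5 of the 9 (the 4 that rose and Sox30), where 27.3% of all genes did the same. The groups overlapped for the other 4, while 55.6% of all genes had groups that did not overlap in one direction or the other. All 9 were well expressed, with wild-type levels above those of 77.8% to 99.5% of the genes tested. Among the 4714 genes of at least 30 CPM in wild type, 28.4% were called higher and 25.1% lower.

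**Figure D1:**
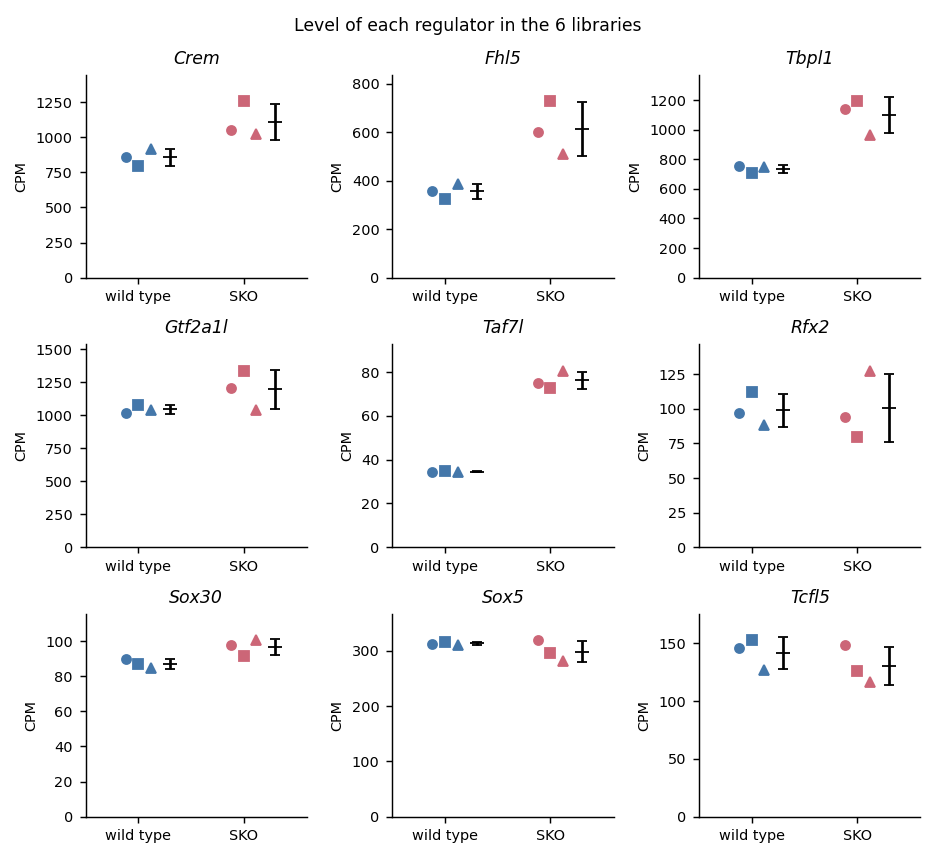
Level in CPM (vertical axes, from 0) of the 9 genes in each wild-type library (blue) and each SKO library (red), with circles, squares and triangles for replicates 1, 2 and 3 and black bars for the mean ± SD of 3 libraries. The SKO points of Crem, Fhl5, Tbpl1, Taf7l and Sox30 all lie above the wild-type points, while those of Gtf2a1l, Rfx2, Sox5 and Tcfl5 overlap them.

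Per kilobase of exon, Gtf2a1l was the most abundant of the 9 in wild type at 553.6 ± 16.7 CPM per kb (SD, n = 3). Fhl5 followed at 304.0 ± 27.0, Tbpl1 at 225.3 ± 8.16 and Crem at 145.2 ± 10.3 CPM per kb. These 4 formed the upper tier, and the libraries of neighbouring genes in that order did not overlap. The other 5 were far lower, with Tcfl5 at 44.8 ± 4.30, Sox30 at 29.0 ± 0.87, Sox5 at 21.8 ± 0.17, Taf7l at 15.4 ± 0.15 and Rfx2 at 13.5 ± 1.63 CPM per kb, the last pair overlapping. In SKO the upper tier had the same order by this length. Gtf2a1l at 633.7 ± 78.6 and Fhl5 at 524.2 ± 93.7 CPM per kb now overlapped. Taf7l moved from place 8 to place 6 at 34.0 ± 1.82, where it overlapped Sox30 at 32.2 ± 1.52. These lengths join all annotated exons of a gene. With the length of the transcript that has the longest coding sequence, Crem came second in wild type at 321.6 ± 22.8 CPM per kb and overlapped Fhl5. In SKO that length put Fhl5 back before Crem, at 524.2 ± 93.7 and 417.3 ± 48.0 CPM per kb, again overlapping. The 39 annotated Crem transcripts cover 5895 bases of exon against 2662 in that one transcript.

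RefSeq promoter windows of GRCm38.p6 were matched for 8 of the 9 symbols, all but Crem. The 250 bases before the start are printed for Fhl5 and Taf7l, which rose, and for Gtf2a1l and Rfx2, which did not pass the test, to show which binding words of the group's own factors they hold. Each runs 5′ to 3′ on the strand of the gene, with matches in capitals. The start is that of RefSeq, while the gene positions below are those of GENCODE M21. The Fhl5 window therefore holds 24 bases of GENCODE exon and the Rfx2 window 5.
Fhl5 (chr4:25242853-25243102, minus strand): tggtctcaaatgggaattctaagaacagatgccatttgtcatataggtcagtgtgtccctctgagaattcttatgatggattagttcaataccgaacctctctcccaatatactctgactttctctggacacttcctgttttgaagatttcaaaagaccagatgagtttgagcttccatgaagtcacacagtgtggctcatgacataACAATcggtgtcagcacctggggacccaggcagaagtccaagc
Taf7l (chrX:134476491-134476740, minus strand): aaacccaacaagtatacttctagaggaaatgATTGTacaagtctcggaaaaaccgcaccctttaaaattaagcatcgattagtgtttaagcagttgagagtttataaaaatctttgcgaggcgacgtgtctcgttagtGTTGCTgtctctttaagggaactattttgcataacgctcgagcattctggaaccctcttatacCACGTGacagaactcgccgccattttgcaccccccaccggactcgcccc
Gtf2a1l (chr17:88668410-88668659, plus strand): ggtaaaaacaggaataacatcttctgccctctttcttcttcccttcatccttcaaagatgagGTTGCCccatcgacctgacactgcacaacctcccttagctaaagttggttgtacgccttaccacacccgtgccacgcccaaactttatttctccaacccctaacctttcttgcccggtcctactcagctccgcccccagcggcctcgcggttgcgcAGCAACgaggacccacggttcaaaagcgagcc
Rfx2 (chr17:56831009-56831258, minus strand): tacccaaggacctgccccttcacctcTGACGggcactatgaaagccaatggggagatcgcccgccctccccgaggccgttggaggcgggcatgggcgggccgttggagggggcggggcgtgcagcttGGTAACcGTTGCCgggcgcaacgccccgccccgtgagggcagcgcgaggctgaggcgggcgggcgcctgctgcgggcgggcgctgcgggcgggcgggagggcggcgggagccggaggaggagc
The words searched on both strands were the cAMP response element TGACGTCA bound by CREM, its half-site TGACG (which the full element contains), the RFX half-sites GGCAAC (also written with T for the C, or with A as its opening letter, or with both), the E-box CACGTG bound by some helix-loop-helix factors, and a core bound by SOX proteins, ACAAT. None of the capital stretches overlapped another. The Taf7l window held an E-box at 49 bases before the start, an RFX half-site at 112 and a SOX core at 219. Gtf2a1l held RFX half-sites at 188 and 32 bases before its start, and Rfx2 held a pair at 123 and 116 and a cAMP half-site at 224. Fhl5 held a SOX core at 43 bases, and no searched word was present in its second RefSeq window or in the Tbpl1 window. By the GENCODE gene positions given below, both of these windows lie inside their genes. They do not cover the bases before the GENCODE starts. Among 32851 promoter windows cut to the same length, 1.5% held the full cAMP element, 17.8% its half-site, 30.7% an RFX half-site, 6.0% an E-box and 27.7% a SOX core. A match is a run of letters in this window and says nothing of binding.

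Crem, the activator after which the group is named, occupies chromosome 18 from 3266048 to 3337748 on the minus strand (GRCm38, GENCODE M21, as for the positions that follow). Its level was 862, 793 and 914 CPM in wild-type replicates 1 to 3 and 1048, 1258 and 1026 CPM in SKO. Every SKO library lay above every wild-type library, by a narrow gap between 914 and 1026 CPM, and SKO replicate 2 was the highest of the 6. The log2 fold change was 0.38 ± 0.13 (SE), a fold of 1.30 (edgeR adjusted p = 0.0413). This call was the weakest of the 4 and ended when any library but SKO replicate 3 was left out. The edgeR adjusted p was then 0.0508 and 0.169 without SKO replicates 1 and 2, and 0.13, 0.142 and 0.0823 without each wild-type replicate in turn. Scaling by library totals alone brought it to 0.13 on the log2 scale (edgeR adjusted p = 0.377). Counts per gene join all Crem transcripts, so activator forms and the repressor forms that the same gene encodes cannot be told apart. The exons of Crem share 472 bases with Gm6225 on the opposite strand, which stood at 6.59 CPM in wild-type cells and 9.20 CPM in SKO.

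Fhl5, the coactivator of CREM, rose more than Crem itself. The gene occupies chromosome 4 from 25199908 to 25242876, minus strand. Wild-type libraries held 357, 324 and 387 CPM and SKO libraries 601, 729 and 511 CPM. The lowest SKO library lay well above the highest wild-type library, and SKO replicate 2 was again the highest. Fhl5 rose by 0.79 ± 0.15 on the log2 scale, a fold of 1.72 (edgeR adjusted p = 0.00293). The call held without any single library. The other LIM-only genes were at very different levels: Fhl4, a testis member of the family, averaged 5059.9 ± 128 CPM in wild-type cells and 5733 ± 1693 CPM with SKO (log2 fold change 0.18 ± 0.20, edgeR adjusted p = 0.506, with its sign turned under library totals and without SKO replicate 2), and Fhl2, a heart and muscle member, at 0.59 ± 0.51 and 3.40 ± 2.39 CPM. Fhl2 was called higher, but the groups overlapped and the call ended without SKO replicate 2 or 3 or without wild-type replicate 1 or 2, and also with DESeq2, with limma-voom and under library totals. As a log2 ratio of counts, Fhl5 to Fhl4, which no scaling of the libraries can alter, was -3.79, -4.00 and -3.72 in wild type and -3.43, -3.25 and -2.89 in SKO.

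The genes whose products act on CREB-type factors, listed together with Creb3 and Creb3l4 of the wider CREB3 family, moved in both directions. Of 16 listed, 15 were tested and 60.0% of these were called, against 42.0% of all genes tested. Among the 15, 4 rose, 5 fell and 6 did not pass, with a median of -0.28. This balance depended on the scaling, with 2 higher and 9 lower under library totals and 5 higher and 2 lower with the length and GC correction. Crebbp, which encodes the coactivator CBP, and its relative Ep300 rose, Crebbp from 25.0 ± 3.07 to 46.1 ± 4.06 CPM (log2 change 0.88 ± 0.15, edgeR adjusted p = 0.0016) and Ep300 from 3.52 ± 0.41 to 8.65 ± 4.12 CPM. Crtc1, a coactivator of CREB that needs no phosphorylation, fell from 3.22 ± 1.24 to 1.25 ± 0.24 CPM, a call that ended without wild-type replicate 1 or 2 and under the length and GC correction. Camk4, a calcium-dependent kinase of spermatids that phosphorylates CREM, fell from 57.2 ± 2.13 to 37.4 ± 0.93 CPM (-0.61 ± 0.13, edgeR adjusted p = 0.0042). Prkaca, the main catalytic subunit of protein kinase A, fell from 84.4 ± 5.45 to 51.5 ± 12.7 CPM (-0.71 ± 0.18, edgeR adjusted p = 0.0116). The Prkaca call ended without wild-type replicate 2 and under the length and GC correction. The second catalytic subunit gene, Prkacb, rose by 0.90 ± 0.31, from 1.30 ± 0.40 to 2.43 ± 0.28 CPM, and its call ended without any library except wild-type replicate 3 and under library totals. Prkar1b fell by 0.94 ± 0.27, a call that ended without wild-type replicate 2 and under the length and GC correction. The regulatory subunit gene Prkar2a fell by 0.68 ± 0.15. Kif17, a motor that carries FHL5 between nucleus and cytoplasm, stood at 27.9, 24.9 and 22.6 CPM in the wild-type libraries and at 28.4, 25.8 and 60.4 CPM in SKO, where replicate 3 alone was high. The closest relatives of Crem did not pass the test, with Creb1 at 10.003 ± 0.74 and 12.2 ± 1.35 CPM (edgeR adjusted p = 0.186) and Atf1 at 141.4 ± 6.65 and 176.8 ± 8.80 CPM (edgeR adjusted p = 0.0526). Crem to Atf1, as a log2 ratio of counts, averaged 2.60 ± 0.16 in wild type and 2.65 ± 0.21 in SKO, a difference within the spread. Creb3l4, a spermatid member of the wider CREB3 family, rose from 751.9 ± 6.72 to 1026 ± 130 CPM (0.45 ± 0.13, edgeR adjusted p = 0.0188). That call ended under library totals, without SKO replicate 2 and without each wild-type replicate.

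**Figure D2:**
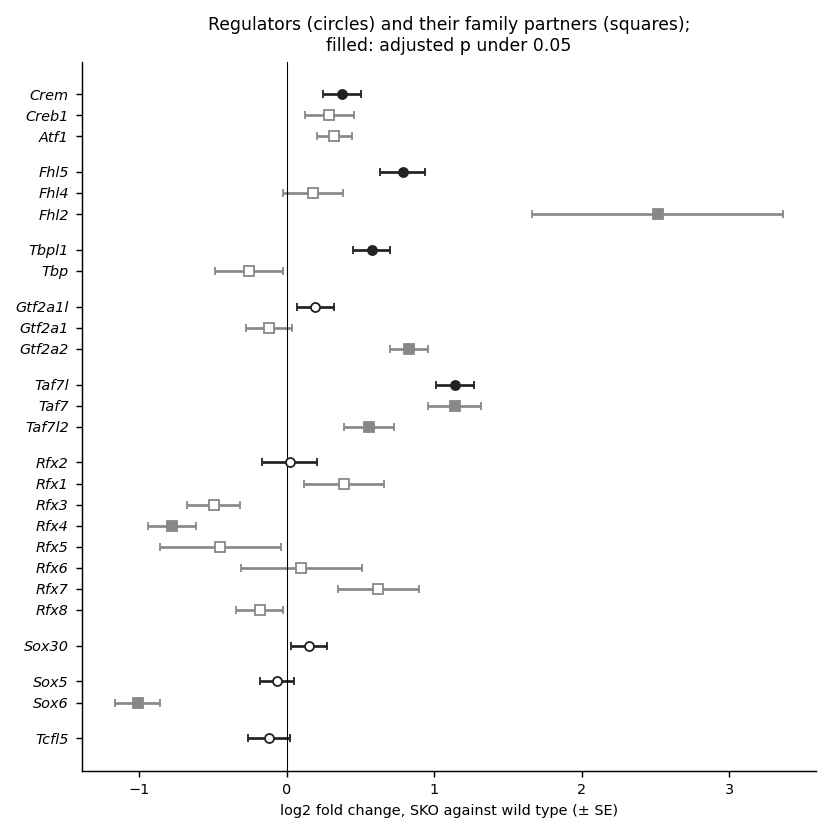
Log2 fold change of SKO against wild type ± SE (horizontal axis) for the 9 genes (circles) and their family partners (squares), filled where the edgeR adjusted p was under 0.05. Taf7l and Taf7 sit together at 1.14, Gtf2a2 lies at 0.83 above Gtf2a1l at 0.19, and Sox6 lies at -1.01 below Sox5 at -0.07.

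Of the 3 germ cell versions of general factors, Tbpl1 and Taf7l rose and Gtf2a1l did not pass the test. Tbpl1, whose product takes the place of the TATA-binding protein at many spermatid promoters, occupies chromosome 10 from 22703879 to 22731938, minus strand. It stood at 756, 707 and 748 CPM in the wild-type libraries and at 1139, 1194 and 961 CPM in SKO, with no overlap and the smallest SKO value in replicate 3. It rose by 0.58 ± 0.13 on the log2 scale, a fold of 1.49 (edgeR adjusted p = 0.00522), and the call held without any single library. Tbp itself stood at 467, 462 and 485 CPM in wild-type cells and 467, 476 and 238 CPM in SKO. Its SKO replicates 1 and 2 were at the wild-type level and replicate 3 was far below (log2 fold change -0.26 ± 0.23, edgeR adjusted p = 0.395). The log2 ratio of Tbpl1 to Tbp was 0.69, 0.61 and 0.63 in wild type and 1.29, 1.32 and 2.01 in SKO, so it was higher in each SKO library. Exons of Tbpl1 share 407 bases with Slc2a12 on the opposite strand, which was not analysed here.

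Gtf2a1l, which encodes the germ cell large subunit of TFIIA, occupies chromosome 17 from 88668660 to 88715152, plus strand. Its level was 1015, 1078 and 1042 CPM in wild-type cells and 1207, 1339 and 1043 CPM in SKO. Replicates 1 and 2 of SKO lay above all wild-type libraries while replicate 3 fell among them, and the gene did not pass the test (log2 fold change 0.19 ± 0.13, edgeR adjusted p = 0.251). Without SKO replicate 3 it did pass, at 0.25 (edgeR adjusted p = 0.0251), and under library totals its sign turned. Gtf2a2, the small TFIIA subunit that pairs with either large subunit, rose from 444.5 ± 43.6 to 791.1 ± 65.1 CPM (0.83 ± 0.13, edgeR adjusted p = 0.000873). Gtf2a1l to Gtf2a2, again as a log2 ratio, was 1.18, 1.43 and 1.10 in the wild-type libraries and 0.72, 0.64 and 0.42 in those of SKO, lower in all 3. Gtf2a1, the somatic large subunit, was low in both groups at 17.9 ± 1.81 and 16.5 ± 1.68 CPM (edgeR adjusted p = 0.566).

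Taf7l changed most of the 9. It occupies the X chromosome from 134460118 to 134476490, minus strand, and encodes the germ cell form of the TFIID subunit TAF7. Wild-type libraries held 34.55, 34.96 and 34.32 CPM and SKO libraries 75.1, 72.8 and 80.8 CPM. Both groups were tight and lay far apart. The log2 fold change was 1.14 ± 0.13, a fold of 2.20 (edgeR adjusted p = 0.000168), and it stayed between 0.90 and 1.18 under all 17 alternatives. Of the 720 tested genes on X, 62.6% were called higher and the median log2 fold change was 1.32, so Taf7l rose by less than the median gene of its chromosome. Taf7, the autosomal gene that Taf7l stands in for, moved by the same amount at a lower level, from 11.8 ± 2.25 to 25.9 ± 1.43 CPM (1.14 ± 0.18, edgeR adjusted p = 0.000873). Their log2 ratio averaged 1.57 ± 0.30 in wild type and 1.56 ± 0.10 in SKO. Taf7l2, a further relative, was the most abundant of the 3 by CPM at 339.5 ± 9.80 in wild type and 499.0 ± 112 in SKO (0.56 ± 0.17, edgeR adjusted p = 0.0248), and its call ended under library totals and without any library except SKO replicate 3. Near-identical stretches of such copies can share reads.

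Of 16 listed TFIID subunit genes 13 were tested, 5 rose, 1 fell and 7 did not pass, with a median of -0.02. The share called was 46.2%, against 42.0% of all genes tested. Under library totals the calls were 4 higher and 3 lower. X-linked Taf9b, a relative of the histone-fold subunit TAF9, rose from 58.4 ± 0.96 to 156.9 ± 16.0 CPM (1.43 ± 0.13, edgeR adjusted p = 6.45e-05) and Taf13 from 83.3 ± 3.89 to 159.7 ± 32.6 CPM. Taf4b, the TFIID subunit gene known from germ cells, fell from 18.1 ± 2.31 to 10.5 ± 2.32 CPM (-0.78 ± 0.20, edgeR adjusted p = 0.0114).

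None of the 4 DNA-binding factor genes passed the test. Rfx2 (chromosome 17, 56775897 to 56831013, minus strand) encodes a winged-helix factor that drives genes of the sperm tail. It stood at 96.7, 112.0 and 88.5 CPM in wild-type cells and 94.0, 79.6 and 127.7 CPM in SKO, the widest spread of the 9, with the highest and the lowest of the 6 values both in SKO (log2 fold change 0.02 ± 0.19, edgeR adjusted p = 0.941). Without SKO replicate 3 the value was -0.23 (edgeR adjusted p = 0.199), and with the correction for transcript length and GC content it was 0.55 (edgeR adjusted p = 0.00466). Its transcript with the longest coding sequence has 3350 bases and 58.5% GC, the highest GC share of the 9. Among its relatives, Rfx4 fell from 144.3 ± 8.99 to 84.3 ± 16.3 CPM (-0.78 ± 0.16, edgeR adjusted p = 0.00413), while Rfx3 stood at 27.1 ± 3.59 and 19.2 ± 3.69 CPM (edgeR adjusted p = 0.0519) and Rfx1 at 19.5, 18.7 and 12.3 CPM in wild-type cells and 17.8, 16.6 and 31.6 CPM in SKO. Rfx2 to Rfx3 gave a log2 ratio of 1.79, 1.89 and 1.93 in wild type and 2.45, 2.23 and 2.44 in SKO.

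Sox30 (chromosome 11, 45980310 to 46017994, plus strand) encodes an HMG-box factor needed after meiosis. Its level was 89.6, 86.8 and 84.4 CPM in wild-type cells and 97.8, 91.6 and 100.5 CPM in SKO. The SKO libraries lay above wild type by a small margin, and the test did not call it (log2 fold change 0.15 ± 0.12, edgeR adjusted p = 0.344). It was called with the length and GC correction (0.56, edgeR adjusted p = 0.0028), and its sign turned under library totals.

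Sox5 (chromosome 6, 143828425 to 144781977, minus strand) encodes a SoxD factor with a short testis form, which counts per gene join with the longer forms. It stood at 312.7, 316.2 and 311.5 CPM in wild-type cells and 319.6, 296.3 and 280.9 CPM in SKO, where the libraries overlapped at the top (log2 fold change -0.07 ± 0.12, edgeR adjusted p = 0.667). It passed the threshold only under library totals, at -0.31 (edgeR adjusted p = 0.0456). Sox6, the SoxD relative, fell from 73.3 ± 2.06 to 36.4 ± 5.77 CPM (-1.01 ± 0.15, edgeR adjusted p = 0.000756). The log2 ratio of Sox5 to Sox6 was therefore 2.13, 2.06 and 2.10 in wild type and 2.93, 3.01 and 3.21 in SKO. Exons of Sox5 share 1330 bases with the antisense gene Sox5os1, which was at 1.20 CPM in wild-type cells and 0.47 CPM in SKO.

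Tcfl5 (chromosome 2, 180621956 to 180642708, minus strand) encodes a helix-loop-helix factor of spermatocytes and round spermatids. Its level was 145.9, 152.8 and 126.5 CPM in wild-type cells and 148.6, 125.9 and 116.3 CPM in SKO, 2 overlapping groups (log2 fold change -0.12 ± 0.14, edgeR adjusted p = 0.525). The length and GC correction turned its sign to 0.28 (edgeR adjusted p = 0.124). Its exons share 234 bases with Col9a3, at 1.24 CPM in wild-type cells and 0.76 CPM in SKO.

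Across 13 ratios of one of the 9 genes to a family partner, 8 did not overlap between the groups. Among single genes 55.6% of all tested did not overlap, and the share for ratios of other gene pairs was not computed. With 3 libraries a group the exact permutation test, two-sided, cannot go below 0.10. Each of the 8 ratios reached that value (0.162 after Benjamini-Hochberg adjustment over the 13), so none could pass 0.05. The ratios that differed most were Sox5 to Sox6 by 0.95, Tbpl1 to Tbp by 0.90, Rfx2 to Rfx4 by 0.79 and Gtf2a1l to Gtf2a2 by -0.65 on the log2 scale. The 5 that overlapped between the groups were those of Crem to Creb1 and Atf1, of Taf7l to Taf7, and of Rfx2 to Rfx1 and Rfx8. Of 21 family partners listed 17 were tested, 4 rose and 2 fell. That was 35.3% called, against 42.0% of all genes tested. The calls were 2 higher and 4 lower under library totals and 6 higher and 3 lower with the length and GC correction.

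Within the SKO group the 9 genes fell into 3 patterns. Crem, Fhl5, Tbpl1 and Gtf2a1l were each highest in SKO replicate 2 and lowest in SKO replicate 3. Taf7l, Rfx2 and Sox30 ran the other way, highest in replicate 3 and lowest in replicate 2. Sox5 and Tcfl5 were highest in replicate 1 and lowest in replicate 3. These orders hold for CPM on effective library sizes, and some gaps were small, such as 1048 and 1026 CPM for Crem in SKO replicates 1 and 3. Scaling by library totals alone changes which SKO library is lowest for Crem, Sox5 and Tcfl5. The ratio of the highest to the lowest SKO library ran from 1.10 for Sox30 to 1.6 for Rfx2, and in wild type from 1.02 for Sox5 and Taf7l to 1.27 for Rfx2. Over the 6 libraries, after removing each group's mean, the correlation of log2 (CPM + 1) was 0.94 for Crem with Fhl5, 0.90 for Fhl5 with Tbpl1 and -0.98 for Fhl5 with Rfx2. These points share their libraries and depth and are few, so they describe these libraries. SKO replicate 3 stood apart on the second principal component of all genes, at -71.4 against 40.3 and 37.6 for the other two. Without it, Crem, Fhl5, Tbpl1, Taf7l and Gtf2a1l were called, 5 of the 9. Calls over all genes tested also rose, from 8312 of 19776 to 9095 of 20262.

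**Figure D3:**
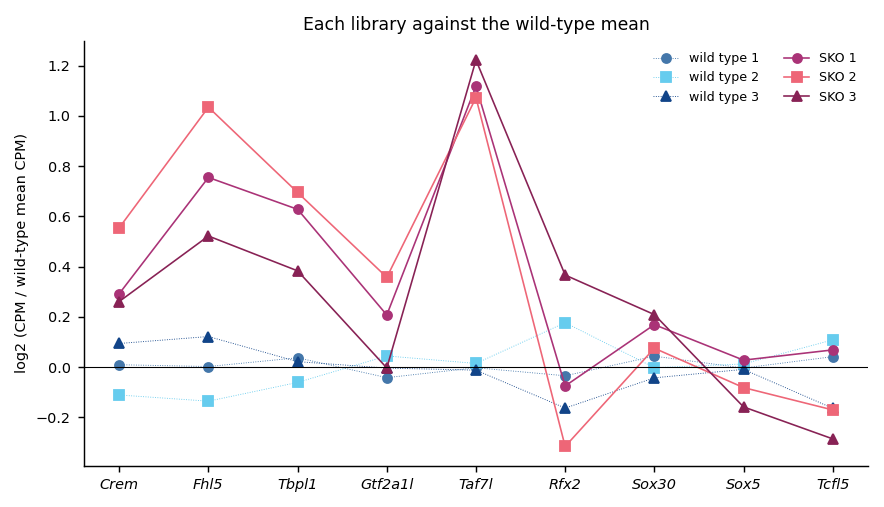
Level of each of the 9 genes in each library as log2 of its CPM over the wild-type mean (vertical axis), with SKO libraries on solid lines and wild-type libraries on dotted lines. SKO replicate 2 (squares) is the highest SKO library for Crem, Fhl5, Tbpl1 and Gtf2a1l, and SKO replicate 3 (triangles) the highest for Taf7l, Rfx2 and Sox30.

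Genes of at least 10 CPM in every library were compared with Crem over the 6 libraries, leaving out clone and model names (Gm and Rik). The most alike of the 5365 compared were Armc12 (Pearson's r of 0.99), Kcne3 (0.99) and Rbm18 (0.99). Armc12, which encodes a protein of the sperm mitochondrial sheath, stood at 316.4 ± 15.9 CPM in wild-type cells and 388.6 ± 26.9 CPM in SKO. Kcne3, a potassium channel subunit gene, stood at 536.2 ± 36.4 and 723.2 ± 87.5 CPM. Rbm18 stood at 42.2 ± 2.29 and 53.1 ± 3.94 CPM. With 6 libraries in 2 groups, high values of r are easily reached.

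Genes often cited in connection with CREM included risers and 1 that fell. Of 10 spermatid genes often cited as CREM-dependent or as carrying cAMP response elements, 5 rose, 1 fell and 4 did not pass, with a median of 0.52. Among all genes of at least 30 CPM in wild type, 28.4% were called higher and 25.1% lower. Under library totals 3 of the 10 were called higher and 2 lower. Of these 10 genes 6 (Prm1, Prm2, Tnp1, Tnp2, Odf1 and Smcp) are also among the 12 markers of elongating spermatids, of which 8 rose and 1 fell, and the part of stage in their change was not tested. Ldhc, the sperm lactate dehydrogenase, rose from 7287 ± 95.7 to 11859 ± 785 CPM (0.70 ± 0.12, edgeR adjusted p = 0.00116), Prm1, a protamine gene, from 375.6 ± 29.0 to 621.2 ± 140 CPM (0.73 ± 0.17, edgeR adjusted p = 0.00662) and Odf1, of the outer dense fibres, from 193.3 ± 18.2 to 309.0 ± 65.9 CPM. The other two that rose, named after their values were seen, were Smcp (0.69 ± 0.17), whose call ended without wild-type replicate 2 and under the length and GC correction, and Tnp2 (0.62 ± 0.17), whose call ended without wild-type replicate 1 or 2 and, like that of Odf1, under library totals. The 1 that fell was Camk4, given above among the kinases. Prm1, Odf1 and Tnp2 were highest in SKO replicate 3, where Fhl5 was lowest, while Smcp was highest in replicate 2. Crem was also lowest in replicate 3 by CPM, but not when scaled by library totals. Ldhc was nearly level in SKO replicates 2 and 3, at 12324 and 12301 CPM. Tnp1 did not pass, at 53.1, 44.9 and 47.9 CPM in wild-type cells and 42.0, 46.6 and 75.3 CPM in SKO.

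Genes for intraflagellar transport and the BBSome, the ciliary class that RFX factors act on, moved in both directions. Of 25 tested 36.0% were called, against 42.0% of all genes tested. Among the 25, 4 rose, 5 fell and 16 did not pass, with a median of -0.01. The balance turned with the scaling, to 2 higher and 10 lower under library totals and to 6 higher and 3 lower with the length and GC correction. Ift20 rose from 19.5 ± 0.71 to 44.5 ± 9.95 CPM (1.19 ± 0.18, edgeR adjusted p = 0.000743), Ift43 by 0.83 ± 0.15 and Ift172 by 0.56 ± 0.15. Ift80 fell from 32.3 ± 3.18 to 17.6 ± 2.50 CPM (-0.88 ± 0.16, edgeR adjusted p = 0.00221), Bbs9 by 0.65 ± 0.15 and Ift122 by 0.64 ± 0.19. The Ift172 call ended without wild-type replicate 2 or 3 and under library totals. The Ift122 call ended without SKO replicate 2 or wild-type replicate 2 and under the length and GC correction. Without SKO replicate 2 the calls in this list came to 5 and without wild-type replicate 2 to 4. Over all genes the calls went from 8312 to 6914 and 6089 in these 2 settings.

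**Figure D4:**
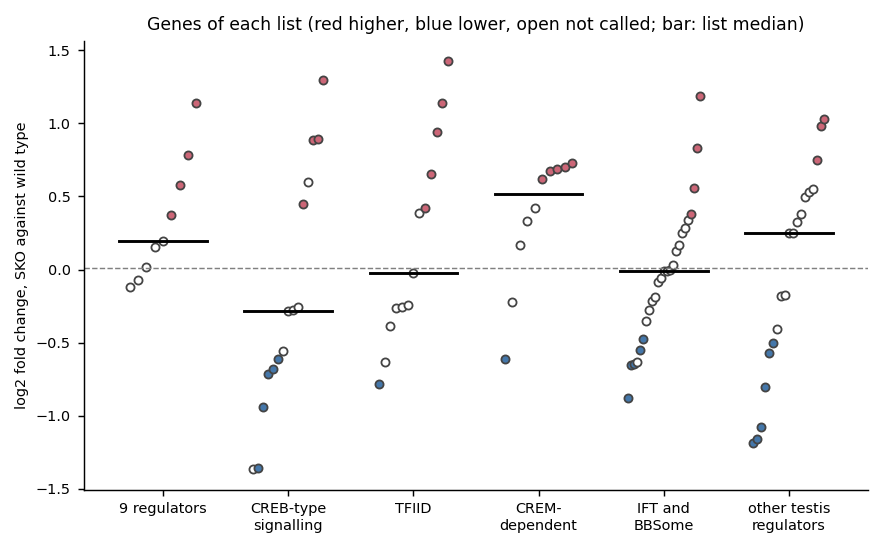
Log2 fold change of SKO against wild type (vertical axis) for the tested genes of each list, red where called higher, blue where called lower and open where not called, with a black bar at the list's median and a dashed line at the median of all genes tested. The median of the CREM-dependent list is 0.52 and that of the CREB-type signalling list is -0.28.

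The library totals ran from 52055193 to 60970931 counts. The smallest of the 54 counts behind the 9 genes was 2028, for Taf7l in wild-type replicate 1. Round spermatid markers were abundant in all libraries, with a summed level of 4271 to 4647 CPM in wild-type cells and 6226 to 6854 CPM in SKO (5 of 10 higher, 1 lower), and elongating spermatid markers summed to 7839 to 8476 and 12497 to 13676 CPM (8 of 12 higher, 1 lower). Spermatocyte markers summed to 1864 to 2022 CPM in wild-type cells and 2038 to 2519 CPM in SKO (5 of 15 higher, 3 lower). A large part of that sum was Syce1, at 986 ± 83.6 and 1363 ± 160 CPM, and the median log2 fold change of the 15 was 0.06. Spermatogonia markers, 6 with a row of 8 listed, summed to 23.8 to 27.7 and 18.3 to 20.7 CPM (0 of 6 higher, 2 lower). Of 14 Sertoli cell markers listed, only 8 had a row among the counts, and Sox9, Amh, Gata4, Wt1, Rhox5 and Fshr had none. Those 8 summed to 3.58 to 12.8 CPM in wild-type cells and 68.6 to 229.4 CPM in SKO. All 8 were called higher, with Cst12 at 0 in wild-type replicate 1. Leydig cell markers, 6 with a row of 8 listed, summed to 1.26 to 21.6 and 8.02 to 44.6 CPM (3 of 6 higher). Insl3 was at 0 in wild-type replicates 1 and 2. Myoid markers, 3 with a row of 5 listed, summed to 5.15 to 12.0 and 16.1 to 35.9 CPM (1 of 3 higher). Macrophage markers, 5 with a row of 6 listed, summed to 3.99 to 4.81 and 1.94 to 7.35 CPM (1 higher and 1 lower of 4 tested). Cd68 was at 0 in wild-type replicates 1 and 2. Immediate early genes, 6 with a row of 8 listed, summed to 19.9 to 30.8 and 30.7 to 37.5 CPM (4 of 6 higher, 1 lower). Over all genes tested, 21.2% were called higher and 20.9% lower. The part of these markers in the results was not tested. In pools of cells a shift in the mix of stages and a change of RNA per cell cannot be told apart.

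**Figure D5:**
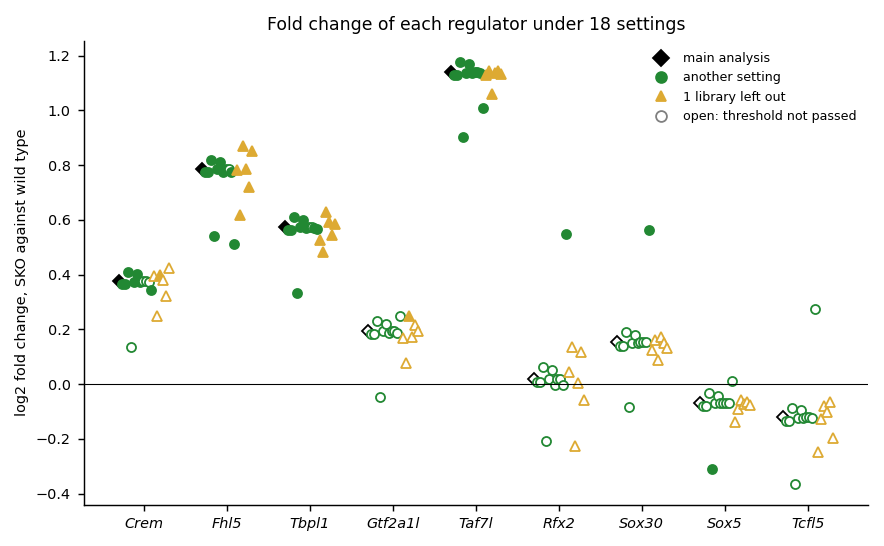
Log2 fold change of SKO against wild type (vertical axis) of each of the 9 genes in the main analysis (black diamonds), under 11 other settings (green circles) and with 1 library left out (yellow triangles), filled where the gene passed that setting's threshold. Crem, Taf7l, Fhl5 and Tbpl1 lie above 0 under all 18, while Gtf2a1l, Rfx2, Sox30, Sox5 and Tcfl5 each cross 0 under at least 1.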

How the data were processed

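The authors deposited raw counts per gene, 1 column for each of 6 Smart-seq2 libraries (paired reads without molecular identifiers, which can repeat one molecule). The submitters' processing notes name FastQC, Trim Galore 0.6.4, HISAT2 2.0.5, featureCounts 1.5.0-p3 and the build GRCm38 (mm10). Annotation release, strand setting and handling of multi-mapped reads: not given in the sources used here, so overlapping genes on opposite strands cannot be separated. Genotype and replicate number in the column names gave each column its sample. edgeR 4.0.16 (R 4.3.3) was run with filterByExpr, TMM factors and the quasi-likelihood test, two-sided, on the group alone, with Benjamini-Hochberg adjustment over 19776 genes. SE is the absolute log2 fold change over the square root of F. Of the rows, 96.7% matched 1 gene of GENCODE M21. Replicate numbers did not pair the libraries. The 9 genes and all lists were chosen with earlier results of these data known. The naming rule took the 9 genes, their relatives and signalling partners. From each other list it took up to 3 called higher and 3 called lower with the lowest adjusted p. It also took the 3 genes most like Crem, leaving out clone and model names. Alternatives included DESeq2 1.42.0, limma-voom (3.58.1), other scalings, filters and thresholds, a replicate block, a loess offset per library on transcript length and GC, and each library left out. The fits were tested on simulated data.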

Additional observations from a re-analysis of the deposited data

How the results depend on the processing

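Taf7l kept its direction and its call under all 17 alternatives, and Fhl5 and Tbpl1 under all but a 2-fold minimum, which their log2 fold changes of 0.786 and 0.575 do not reach. The members called came to 1 under that minimum. Crem, at 0.376, also missed the 2-fold minimum and an adjusted p of 0.01, and its call ended under library totals only (0.134) and with the replicate number as a block (0.372). With library totals the all-gene median was -0.228 in place of 0.012, and 33.3% of calls were higher in place of 50.3%. Under them Gtf2a1l was -0.049, Rfx2 -0.208 and Sox30 -0.084, with the sign turned, and Sox5 at -0.309 passed the threshold. The length and GC correction brought Rfx2 to 0.548 and Sox30 to 0.564, both called, and turned Sox5 to 0.012 and Tcfl5 to 0.275. The cause was not tested. Rfx2 also turned to -0.002 with limma-voom and to -0.002 with the replicate block. The block left 3 of the members called and 7218 genes called in all, and deviations of same-numbered libraries correlated at -0.022, -0.051 and -0.065, so the numbers were not treated as pairs. Leaving out 1 library at a time gave 0.250 to 0.424 for Crem, 0.077 to 0.250 for Gtf2a1l (called without SKO replicate 3) and -0.227 to 0.135 for Rfx2. Calls then ranged from 4 to 9 for the cilium list, 4 to 10 for CREB-type signalling and 6 to 14 for other testis regulators. Over all genes they ranged from 6089 to 9095. At an adjusted p of 0.01 calls fell from 8312 to 5164 over all genes, from 9 to 4 in CREB-type signalling and from 9 to 4 in the cilium list. With a 2-fold minimum they were 4883 over all genes, 3 for the family partners, 2 for CREB-type signalling, 2 for TFIID, 0 for the CREM-dependent list, 1 for the cilium list and 4 for other testis regulators. The smallest count behind any of the 9 genes was 2028.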

Other observations

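Other transcription regulators known from testis germ cells shifted in both directions. Of 20 listed, 19 were tested, 3 were higher in SKO, 6 lower and 10 not called, with a median log2 fold change of 0.25. Those called made up 47.4%, against 42.0% of all genes tested. With the length and GC correction 6 were higher and 3 lower. Ovol2 and Ovol1, zinc finger genes of germ cells, both fell. Ovol2 changed by -1.19 ± 0.12 (edgeR adjusted p = 0.000108), at 147.1 ± 3.51 CPM in wild type against 64.5 ± 4.05 CPM, while Ovol1 changed by -1.16 ± 0.20 (edgeR adjusted p = 0.00137) at 12.6 ± 0.67 and 5.63 ± 1.27 CPM. Kctd19, whose product works with the meiotic factor ZFP541, fell from 451.1 ± 56.0 to 213.8 ± 72.1 CPM. Y-linked Zfy2, the spermatocyte factor gene Mybl1 and Hsf2, a heat shock factor gene, rose by 1.03 ± 0.20, 0.98 ± 0.18 and 0.75 ± 0.17. Without SKO replicate 3 the calls in this list came to 14, while those over all genes rose from 8312 to 9095.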
